A study of Mus musculus with 6 samples.

Results

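Hippocampal gene expression of mice given venlafaxine at either of 2 doses was compared with that of mice given none. Venlafaxine, an antidepressant, inhibits the transporters that take serotonin and noradrenaline back into neurons. All 6 arrays of the series entered this comparison: 4 treated arrays as one group and 2 control arrays as the other. Of 18193 genes with a probe set of their own, 1614 (8.87%) had both control arrays outside the range of all 4 treated arrays, 700 (3.85%) lower with the drug and 914 (5.02%) higher. Such a gene is called apart here. After genes with a mean log2 level under the average array median of 7.80 were set aside, 11559 genes were tested and 920 of these (7.96%) were apart, 513 lower (4.44%) and 407 higher (3.52%). The 2 control arrays can be placed among the 6 in 15 ways. If all arrays were exchangeable, chance would put a share of 0.0667 of genes apart in each direction. The observed shares were below this in each direction, so the counts alone show no excess of apart genes.

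The animals were male DBA/2 mice, housed singly, that drank venlafaxine in their water for 30 days at 0 (control), 30 (low dose) or 100 (high dose) mg per kg of body weight per day. All groups share the strain, the sex and the housing, and age is not given in the sources used here. Each dose group held 10 animals, and their hippocampal RNA was pooled by side, so that every array shows 1 pool of left or right hippocampi. The labels do not state whether left and right pools held the same animals, so p-values cover only the scatter among pools, part of which may be technical.

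The right pools were control 1, low dose 1 and high dose 2, and the left pools were control 2, low dose 2 and high dose 1. Control 2 and high dose 2 were hybridized on a later date than the other 4 arrays, and had RNA integrity numbers of 7.9 and 8.2, against 8.5 to 9.1 for the others. Arrays of the first date correlated at 0.997 to 0.998 with each other and at 0.995 with those of the later date, which correlated at 0.997 with each other. All 13 mature dentate granule cell markers and all 18 markers of CA1, CA2 and CA3 pyramidal cells passed the level filter. So did all 14 choroid plexus markers on the array, 12 of 13 neocortex markers and 11559 of all 18193 genes. A pool measured this way cannot tell fewer cells of a type apart from less RNA per cell.

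Many of the lower genes with the widest gaps were immediate early genes, and 8 of the first 15 were on the 3 activity lists described below. Of all 513 lower genes, 27 were on those lists, which held 62 of the 11559 tested genes. Those lists were chosen with earlier results of these data known. Immediate early genes are transcribed within minutes of synaptic activity, through kinases that act on factors already bound at their promoters, such as CREB and the serum response factor. Some encode transcription factors of the Egr, AP-1 (Fos and Jun) and Nr4a families, some encode effectors at the synapse such as Arc, and some encode phosphatases and Sprouty proteins that switch the kinase signal off again. In the hippocampus they are widely used as a record of recent neuronal firing.

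Egr2, a zinc finger transcription factor, fell with the drug. It read 8.64 and 9.06 on the control arrays, 7.94 and 7.90 at the low dose and 8.01 and 8.01 at the high dose, all as log2 levels. The 4 treated arrays lay within 0.11 of each other, and the nearest control stood 0.63 above the highest of them. The mean went from 8.85 ± 0.30 (SD, n = 2) to 7.96 ± 0.05 (SD, n = 4), which is 1.85-fold or -0.88 on the log2 scale (SE 0.11). Its adjusted p was 0.0359 in limma (Benjamini-Hochberg). Egr2 was the 1 gene past the threshold of 0.05, which is 0.00865% of the 11559 tested, and 222 genes had an unadjusted p under 0.05, fewer than the 578 that evenly spread p-values would give. No single gene can reach p under 0.0667 in an exact two-sided permutation test here, since 2 of 6 arrays can be chosen in 15 ways.

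The call on Egr2 was not kept in every fit. Over 19 alternative settings its log2 fold change stayed between -1.10 and -0.67, and limma called it in 12, with adjusted p from 6.94e-22 to 0.547. Leaving out 1 array at a time ended the call in limma (adjusted p in brackets) for control 2 (0.0658), low dose 1 (0.342), low dose 2 (0.547) and high dose 1 (0.109), but not for control 1 (0.000114) or high dose 2 (8.1e-05). The call also ended with no level filter (0.112), with the mean of all probe sets (0.183) and after quantile normalization (0.314).

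The genes with the next widest gaps were also immediate early genes, and the values that follow describe genes chosen by that gap. Fos, a subunit of AP-1, read 11.06 and 11.21 in the controls, 10.41 and 10.64 at the low dose and 10.50 and 10.59 at the high dose. Its log2 fold change was -0.60 (SE 0.09, limma adjusted p = 0.124). Egr1, a close relative of Egr2, read 12.95 and 13.16, then 12.32 and 12.46, then 12.42 and 12.62 in the same order. In both genes the 2 doses overlapped each other and every treated array was below every control.

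Arc, whose protein helps remove AMPA receptors from synapses, read 10.58 and 10.33 in the controls, 9.74 and 9.87 at the low dose and 10.01 and 9.90 at the high dose. The nuclear receptor gene Nr4a1 read 11.16 and 10.98, then 10.52 and 10.52, then 10.69 and 10.43. Dusp1, which encodes a phosphatase that inactivates MAP kinases, read 10.69 and 10.58, then 10.09 and 10.33, then 10.27 and 10.15. The log2 fold changes were -0.60 for Egr1, -0.58 for Arc, -0.53 for Nr4a1 and -0.42 for Dusp1, with limma adjusted p of 0.194, 0.227, 0.227 and 0.823. None of these 5 genes after Egr2 passed. When each dose group had its own coefficient, which leaves the fold changes as they are, limma called 5 genes (0.0433%), namely Egr2, Fos, Egr1, Arc and Nr4a1.

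**Figure D1:**
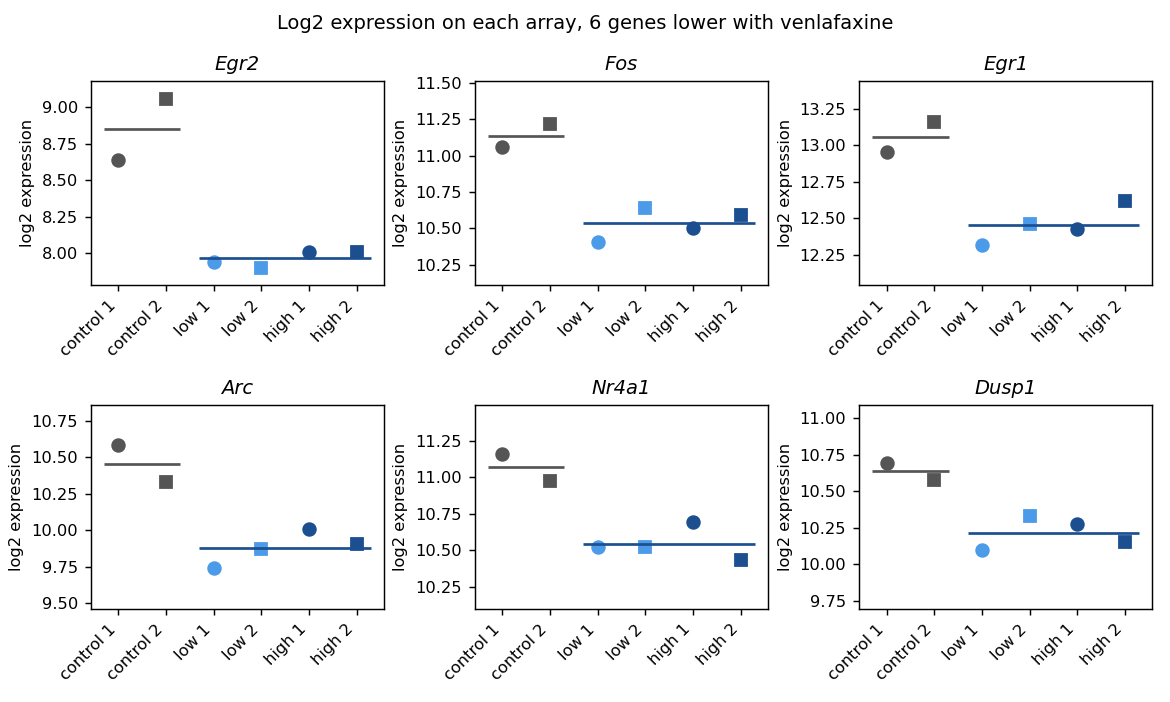
Log2 expression of 6 genes on each of the 6 arrays, with circles for replicate 1, squares for replicate 2 and lines for the means of the 2 control and the 4 treated arrays. Each panel spans the same log2 range, and in each both controls lie above all 4 treated arrays, by 0.63 for Egr2 and by 0.25 for Dusp1.

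The start regions of 4 of these genes are shown because the genes read lower together and are known targets of the activity-regulated factors named above. Each line is the 250 bases before the transcription start, read 5′ to 3′ on the strand of the gene, from RefSeq (GRCm38.p6). For Egr2, which has 5 listed starts, the one with most matches is shown. The windows are chr10:67537619-67537868 (+) for Egr2, chr12:85473640-85473889 (+) for Fos, chr15:101266596-101266845 (+) for Nr4a1 and chr17:26508473-26508722 (-) for Dusp1. Capitals mark matches, on either strand, to the cAMP response element (CRE, TGACGTCA), its core (TGACG), the CArG box, the Egr site (GCGNGGGCG) or the E-box (CACGTG); the AP-1 site (TGANTCA) was also searched.
Egr2: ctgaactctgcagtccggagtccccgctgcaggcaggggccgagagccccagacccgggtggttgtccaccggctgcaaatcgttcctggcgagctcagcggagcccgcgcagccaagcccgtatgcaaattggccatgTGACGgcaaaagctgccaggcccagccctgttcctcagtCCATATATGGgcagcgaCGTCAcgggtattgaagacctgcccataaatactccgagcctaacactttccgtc
Fos: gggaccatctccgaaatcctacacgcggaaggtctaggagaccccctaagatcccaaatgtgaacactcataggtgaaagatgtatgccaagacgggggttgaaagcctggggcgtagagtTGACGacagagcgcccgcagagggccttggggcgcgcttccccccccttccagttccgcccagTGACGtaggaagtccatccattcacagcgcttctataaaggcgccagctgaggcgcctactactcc
Nr4a1: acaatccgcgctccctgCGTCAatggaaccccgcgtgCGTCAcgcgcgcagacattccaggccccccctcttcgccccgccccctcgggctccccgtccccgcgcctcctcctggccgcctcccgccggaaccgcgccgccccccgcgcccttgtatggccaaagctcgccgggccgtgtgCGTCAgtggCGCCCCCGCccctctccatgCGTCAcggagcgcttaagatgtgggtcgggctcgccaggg
Dusp1: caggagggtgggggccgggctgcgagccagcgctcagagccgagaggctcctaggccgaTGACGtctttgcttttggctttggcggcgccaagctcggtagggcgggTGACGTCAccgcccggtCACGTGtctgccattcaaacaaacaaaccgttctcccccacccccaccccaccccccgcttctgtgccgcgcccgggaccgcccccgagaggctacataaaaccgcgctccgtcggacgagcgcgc

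Egr2 had a CArG box 72 to 63 bases before its start, between 2 CRE cores. Fos had 2 cores, Nr4a1 had 4 and an Egr site, and Dusp1 had a full CRE, which contains 2 of its 3 cores, and an E-box. Such matches are common: over the windows of the table, which run from 250 bases before to 50 after the start, 20.8% of 32851 held a CRE core, 1.79% a full CRE, 1.63% a CArG box, 7.81% an AP-1 site, 5.55% an Egr site and 7.15% an E-box. Counted by gene, 409 of the 513 lower genes had a window, and 34.0% of them held a core, against 36.0% of the 9366 tested genes with a window. For a full CRE the shares were 3.67% and 3.61%, for a CArG box 1.71% and 1.56%, for an AP-1 site 4.65% and 5.87% and for an Egr site 15.9% and 13.2%. An E-box was in 41 of the 409 and in 11.9% of the 9366. For the 328 higher genes with a window the shares were 29.3%, 2.13%, 0.915%, 6.71%, 8.23% and 11.3% in the same order. No test was made of these shares.

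Of the 15 lower genes with the widest gaps, 8 were on the 3 activity lists described below. Besides the 6 genes above these were Fosl2, a Fos relative, with a log2 fold change of -0.35, and Klf10, a zinc finger factor, with -0.34. The other 7 have other roles. Dnajb5, a co-chaperone of heat shock protein 70, read 10.53 and 10.46 in the controls, 10.21 and 10.20 at the low dose and 10.13 and 10.17 at the high dose. Cdkn1a, which encodes the cell cycle inhibitor p21, read 8.84 and 8.70, then 8.41 and 8.53, then 8.42 and 8.34. The log2 fold changes were -0.32 for Dnajb5 and -0.35 for Cdkn1a. In Dnajb5 the 4 treated arrays lay closer together than the gap of 0.25 that set them apart from the controls.

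Iqcb1, a gene of the primary cilium, had a log2 fold change of -0.25, Uba6, a ubiquitin-activating enzyme, -0.27, the chromodomain gene Cdyl2 -0.26, the zinc finger gene Zfp874b -0.22 and Fam184b -0.29. In each of these 5 the nearest control was 0.18 to 0.20 above the highest treated array. None of the 14 lower genes after Egr2 passed in limma over all genes. With the hybridization date as a term in the model, 10 of the 15 passed, against 0.562% of all tested genes; since these genes were chosen by their gap on the same arrays, that count is a description.

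Genes higher with the drug had narrower gaps. The widest was that of Opalin, a membrane protein of myelinating oligodendrocytes, which read 9.86 and 9.88 in the controls, 10.13 and 10.27 at the low dose and 10.05 and 10.07 at the high dose. Its log2 fold change was 0.26 (SE 0.08, limma adjusted p = 1.00), and the gap was 0.18. No other higher gene had a gap over 0.12, while 10 lower genes had one over 0.2. Gpr37, another gene of oligodendrocytes, read 10.77 and 10.71, then 10.96 and 11.13, then 10.86 and 10.88. Hpca, which encodes the neuronal calcium sensor hippocalcin, read 13.65 and 13.42, then 13.80 and 13.90, then 13.74 and 13.75. In Opalin, Gpr37 and Hpca both low dose arrays were above both high dose arrays.

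The other 12 higher genes with the widest gaps had log2 fold changes of 0.14 to 0.29 and gaps of 0.09 to 0.12. They included Fzd6, a Wnt receptor (0.19), Cyp26b1, which breaks down retinoic acid (0.20), Gsr, glutathione reductase (0.14), Lcmt2, a tRNA-modifying enzyme (0.27), the kinase gene Pskh1 (0.14) and Mrnip, a DNA repair gene (0.17). The remaining 6 were 2900052L18Rik (0.19), Prr32 (0.29), Vmn1r44 (0.16), Gm20754 (0.21), Efcab7 (0.19) and Abhd14b (0.19). No higher gene passed in limma.

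**Figure D2:**
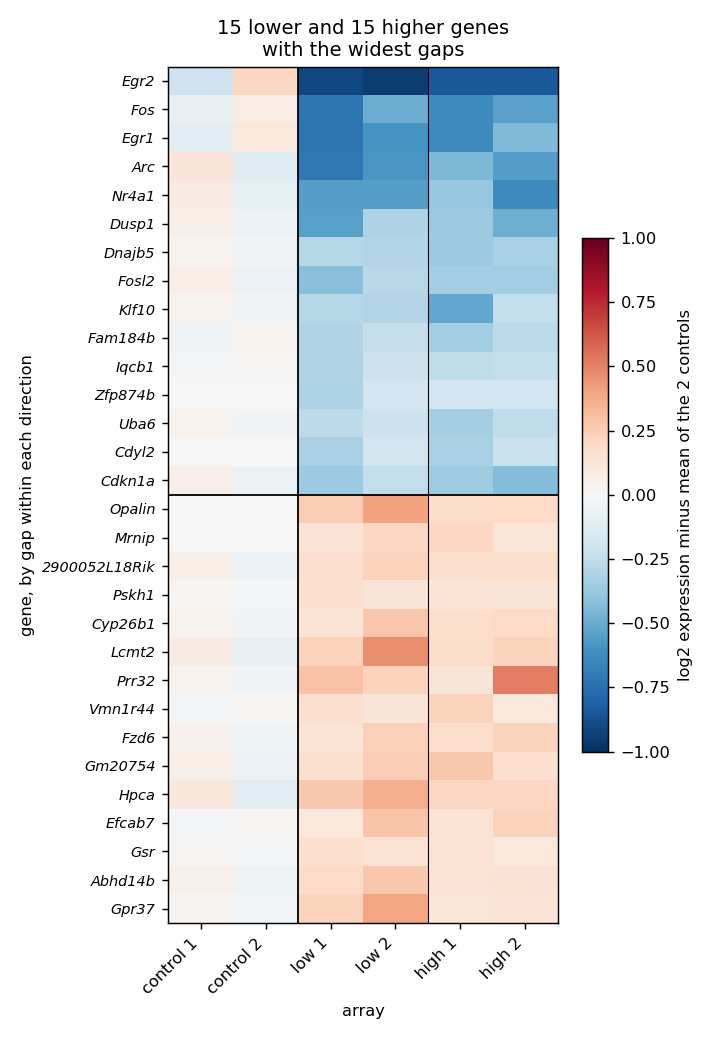
Log2 expression on each array minus the mean of the 2 controls (colour) for the 15 lower and the 15 higher genes with the widest gaps between the nearest control and the nearest treated array. The lower genes start with Egr2, whose gap was 0.63, and the higher genes with Opalin, whose gap was 0.18.

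Over all tested genes, 4.44% were apart and lower, 3.52% apart and higher, and 7.96% apart either way. In each direction this was under the share of 0.0667 that chance would give with exchangeable arrays. The median log2 fold change was -0.14 for the 513 lower genes and 0.11 for the 407 higher genes, and the median gap was 0.035 and 0.020. Among the lower genes 26 had a mean difference over 0.3 on the log2 scale, and among the higher genes 1 had. At the edge of the rule, Pdlim5 and Trpc7 were inside it among higher genes and Hlf and Unkl among lower genes, with gaps of 1.03e-05 to 0.000134. Lgals3, Mafk, Dyrk2 and Aff1 missed it by 6.38e-06 to 0.00023. With quantile normalization 1027 genes were higher and 743 lower, so that the higher share went from 44.2% to 58%; 311 of the 513 lower and 328 of the 407 higher genes kept their place, as did all 15 of the widest gaps in each direction.

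Both doses were set against the same 2 controls, so their differences are given side by side. Egr2 was lower by a log2 difference of -0.93 at the low dose and -0.84 at the high dose. Fos had -0.61 and -0.59, Egr1 -0.67 and -0.54, Arc -0.65 and -0.50, Nr4a1 -0.55 and -0.51, and Dusp1 -0.42 and -0.42. At 30 as at 100 mg per kg, these 6 genes were below the controls by amounts that differed by at most 0.15.

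The difference between the doses was tested directly over all genes. For genes chosen by their gap the values are a description, since the range of the treated arrays is part of the rule. In limma 0 of 11559 genes (0.0%) passed the threshold between high and low dose. An unadjusted p under 0.05 was found for 725 genes, more than the 578 that evenly spread p-values would give. For Egr2 the high dose stood 0.09 above the low dose on the log2 scale (95% interval -0.15 to 0.33). The interval was -0.20 to 0.25 for Fos, -0.10 to 0.36 for Egr1, -0.07 to 0.38 for Arc, -0.19 to 0.27 for Nr4a1 and -0.22 to 0.22 for Dusp1. For all 15 lower genes with the widest gaps the interval held 0, with estimates no farther than 0.15 from it. These intervals leave room for a difference between doses of up to 0.38 on the log2 scale.

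In 357 of the 513 lower genes (69.6%) and 261 of the 407 higher genes (64.1%) the doses differed by less than 0.5 times the mean difference from control. The rule for apart genes itself limits the difference between doses relative to that from control. These shares are therefore a description, and the share over all tested genes was not computed. Lower genes were lower still at the high dose in 68.4%, and higher genes were lower at the high dose than at the low dose in 58.2%, while 77.6% of all tested genes were. Over all tested genes the median of high minus low dose was -0.067.

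Some genes that were apart had larger estimates of the difference between doses. Avp, which encodes the peptide hormone vasopressin, read 7.80 and 8.00 in the controls, 9.32 and 8.40 at the low dose and 8.01 and 8.21 at the high dose. High minus low dose was -0.75 (95% interval -1.10 to -0.40, limma adjusted p = 0.496), and its nearest treated array was 0.01 above the controls. Nfil3, a transcriptional repressor tied to the circadian clock, was -0.21 from control at the low dose and -0.48 at the high dose, with high minus low dose at -0.28 (-0.51 to -0.05, adjusted p = 0.756). Mtcl1, a microtubule crosslinking gene, had -0.15 and -0.41, with -0.26 (-0.47 to -0.05, adjusted p = 0.756).

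**Figure D3:**
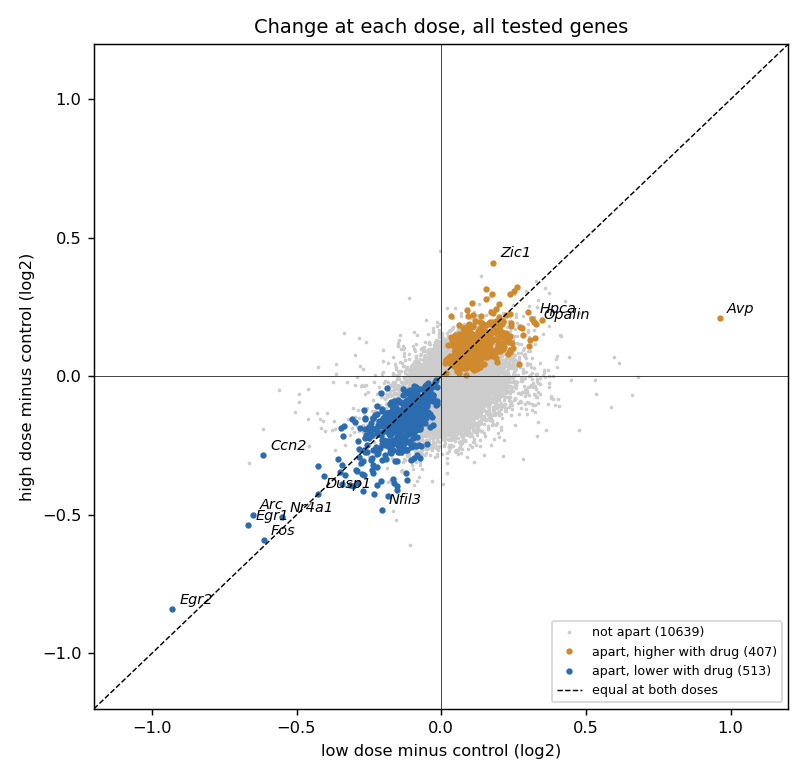
Log2 difference from control at the low dose (horizontal) and at the high dose (vertical) for the 11559 tested genes, with blue for the 513 lower and orange for the 407 higher genes that were apart; both axes share the 2 controls. Egr2 lies near the dashed line of equal change at -0.93 and -0.84, whereas Avp lies far to the right of it at 0.96 and 0.21.

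Each hybridization date held 1 control array, and so did each side. By the rule every difference within a date or side has the same sign, and the sizes are given. On the first date the mean of the 3 treated arrays minus control 1 was -0.69 for Egr2, -0.54 for Fos, -0.55 for Egr1, -0.71 for Arc, -0.59 for Nr4a1 and -0.46 for Dusp1. On the later date high dose 2 minus control 2 was -1.05, -0.62, -0.55, -0.43, -0.54 and -0.43 in the same order. Egr2 was thus more different on the later date and Arc on the first.

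Between right pools the differences were -0.67 for Egr2, -0.56 for Fos, -0.49 for Egr1, -0.76 for Arc, -0.69 for Nr4a1 and -0.57 for Dusp1. Between left pools they were -1.10, -0.64, -0.72, -0.39, -0.37 and -0.28. Arc, Nr4a1 and Dusp1 differed more on the right and Egr2, Fos and Egr1 more on the left. Over all tested genes the median difference was -0.077 on the right and 0.082 on the left. Control 1 was a right pool of the first date and control 2 a left pool of the later date. Side and date therefore cannot be told apart in the controls, and the difference between sides was not tested.

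With the date as a term limma called 65 genes (0.562%), 13 higher and 52 lower, of which 40 were apart. With a replicate block it called 2 (0.0173%). All 6 genes passed with the date as a term, with adjusted p of 6.94e-22 for Egr2, 1.34e-09 for Fos, 7.26e-09 for Egr1, 2.75e-10 for Arc, 1.84e-09 for Nr4a1 and 1.74e-05 for Dusp1. That fit gave every gene the same estimate of the spread, so its p-values order genes by size of change, and the 6 genes had been chosen on the same arrays. With side as a term the call on Egr2 was kept (adjusted p = 0.0191) and 1 gene passed.

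**Figure D4:**
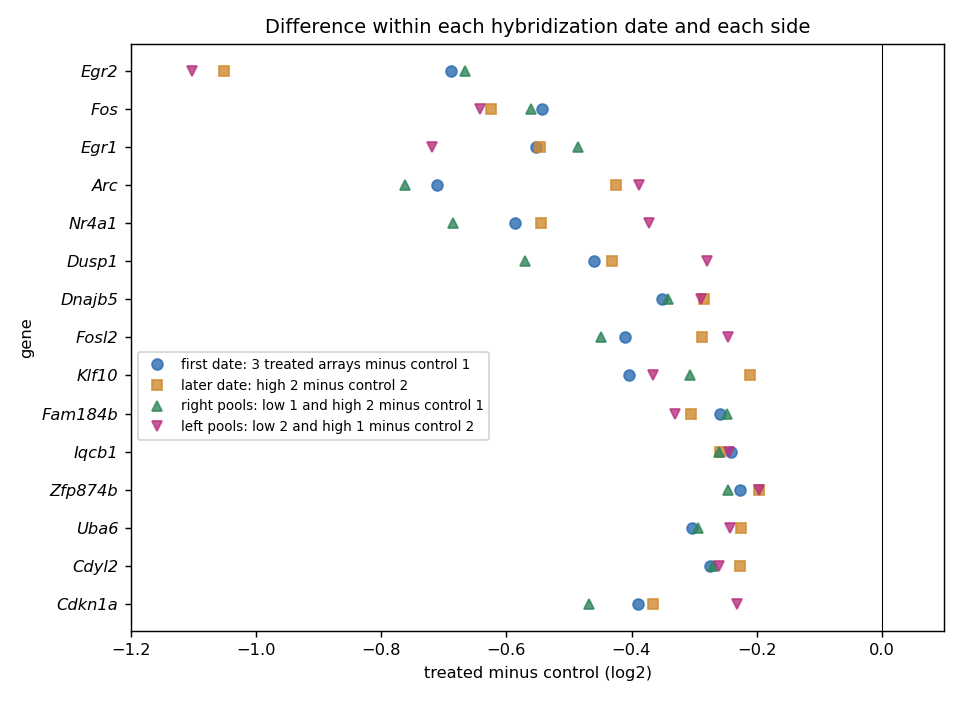
Treated minus control (log2) within each hybridization date and each side for the 15 lower genes with the widest gaps; each point rests on 1 control array. For Egr2 the first date gave -0.69 and the later date -1.05, and for Arc -0.71 and -0.43.

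Gene lists show which roles the apart genes have. The lists were chosen with earlier results of these data known, so the shares that follow are a description and no independent evidence of enrichment. The 3 activity lists held 62 tested genes, of which 27 (43.5%) were apart and lower, against 4.44% of all tested genes, and 0 were apart and higher. Among immediate early transcription factors 12 of 25 were apart, all lower: Egr2, Fos, Egr1, Nr4a1, Fosl2, Klf10, Junb, Nfil3, Nr4a2, Egr3, Egr4 and Ier5. Their median log2 fold change over the 25 was -0.15, against 0.0041 for all tested genes, and 22 of the 25 had lower means; 1, Egr2, passed in limma, and 11 passed with the date as a term. Junb, an AP-1 subunit, read 8.54 and 8.44 in the controls, 8.19 and 8.26 at the low dose and 8.27 and 8.17 at the high dose. Npas4, an activity-induced factor specific to neurons, did not follow: it read 8.60 and 8.65, then 8.47 and 8.79, then 8.81 and 8.65, with the doses on both sides of the controls. Fosb did not pass the level filter; it read 7.99 and 7.81 in the controls, 7.82 and 7.60 at the low dose and 7.64 and 7.32 at the high dose, so that low dose 1 overlapped the controls.

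Among activity-induced effectors 7 of 23 were apart, all lower, with a list median of -0.089 (-0.049 without control 1): Arc, Ccn2, Gadd45b, Tiparp, Ccn1, Homer1 and Per1. Ccn2, a matrix-associated growth factor, read 10.33 and 10.58 in the controls, 9.48 and 10.21 at the low dose and 10.15 and 10.20 at the high dose, so low dose 1 was far below the other treated arrays. Bdnf, the neurotrophin, overlapped, with 10.38 and 10.16 in the controls and 10.21 to 10.40 in the treated arrays. Of the kinase inhibitors, 8 of 14 were apart, all lower, with a list median of -0.13: the phosphatases Dusp1, Dusp4, Dusp6 and Dusp14, and Errfi1, Spred1, Spred3 and Spry4. Dusp6, which acts on ERK, read 11.31 and 11.20 in the controls, 11.15 and 11.13 at the low dose and 11.06 and 11.13 at the high dose. None of these effectors and inhibitors passed in limma in the comparison of 4 with 2 arrays, and 2 of each list passed with the date as a term; Arc also passed with 1 coefficient per dose group.

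Other lists held fewer such genes, though several had a share apart above the 7.96% of all tested genes. That share was 29.4% for clock genes, 25% for glucocorticoid genes, 25% for neurogenesis genes, 15.8% for glutamate receptor subunits and 15.8% for GABA and interneuron genes. It was 3.12% for chaperones, 3.7% for cAMP and CREB genes and 5.88% for cholesterol genes. These lists are small, and their shares were not tested. Of 17 circadian clock genes 4 were apart and lower (Npas2, Hlf and, also on the activity lists, Nfil3 and Per1) and 1 higher (Nr1d1). Of 20 glucocorticoid receptor genes and targets 4 were lower (Dusp1, Cdkn1a, Errfi1 and Per1, of which Dusp1, Errfi1 and Per1 are also on the activity lists) and 1, Sult1a1, higher. Of 32 chaperone and unfolded protein response genes 1 was apart, Dnajb5, and the list median was -0.022, with 0.038 at the low dose and -0.12 at the high dose; the median was 0.0067 without high dose 1 and -0.093 without low dose 2. Of 27 cAMP and CREB genes 1 was apart, Crtc2. Of 19 glutamate receptor subunits Grik2 and Grm4 were lower and Grik4 higher, and of 19 GABA and interneuron genes Gabrd, Reln and Vip were lower. None of 25 respiratory chain genes, 22 splicing regulators and nuclear noncoding RNAs, 10 neurotrophin genes, 12 microglial or 10 endothelial markers was apart. Of 17 cholesterol genes 1, Srebf1, was higher, and of 12 neurogenesis genes Hes5 and Sox4 were lower and Nes higher.

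Levels of markers of neighbouring brain regions differed beside those of the activity genes. Of 12 tested neocortex markers 4 were apart and lower, namely Mef2c, Ccn2, Nr4a2 and Cux2, of which Ccn2 and Nr4a2 are also activity genes, and Lmo4 was higher; 10 of the 12 had lower means. In that list 41.7% were apart, against 7.96% of all tested genes. The mean level of that list was 10.86 and 10.78 on the control arrays and 10.55 to 10.75 on the treated arrays. Of 10 tested striatum markers all had lower means and 2, Drd1 and Gpr6, were apart. The mean level of the 10 was 9.77 and 9.94 in the controls and 9.45 to 9.85 in the treated arrays. Their median difference was -0.22 (first date -0.039, later date -0.48). It was -0.079 without control 2 and -0.33 without control 1. The striatum list was thus lower mainly between control 2 and high dose 2, the arrays of the later date. The part of these region markers in the result was not tested.

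Among the other cell types, Opalin was the 1 oligodendrocyte marker of 12 that was apart, although all 12 had higher means. The mean level of the 12 was 11.29 and 11.11 in the controls, 11.43 and 11.51 at the low dose and 11.30 and 11.05 at the high dose. Both low dose arrays were above the other 4. Of 12 meningeal markers 11 had higher means and Slc22a6, Col3a1 and Lum were apart, and the list's level overlapped, with 9.13 to 9.36 in the controls and 9.23 to 9.51 in the treated arrays. All 14 choroid plexus markers had higher means, with a median difference of 0.23 (first date 0.038, later date 0.52); Slc4a5 was apart, and 5 passed in limma with the date as a term. The level of that list was 9.28 and 9.02 in the controls and 9.15 to 9.52 in the treated arrays. The part of these markers in the results for higher genes was not tested. Of 13 dentate granule cell markers Tdo2 was higher and Pdyn lower, of 18 pyramidal markers Iyd and Grik4 were higher, of 14 astrocyte markers Sox9 was higher, of 11 thalamus markers Zic1 and Tac2 were higher, and of 9 hormone genes Avp was higher. Of the 2 tested blood markers Bpgm was higher. The share apart was 25% for meningeal, 18.2% for thalamus, 15.4% for dentate, 11.1% for pyramidal and 11.1% for hormone genes. It was 8.33% for oligodendrocyte, 7.14% for choroid plexus and 7.14% for astrocyte markers, against 7.96% of all tested genes.

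**Figure D5:**
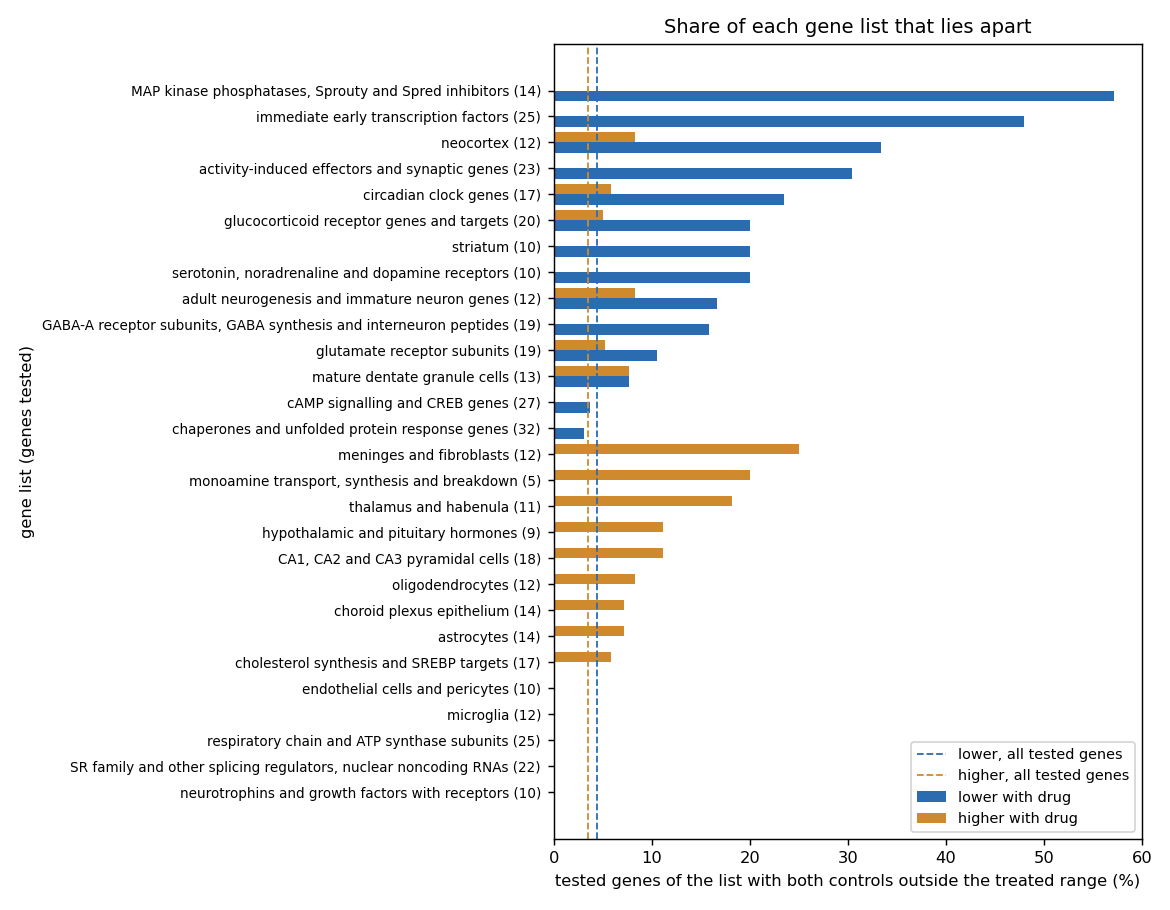
Share of the tested genes of each list (number in brackets) with both controls above (blue, lower with drug) or below (orange, higher with drug) all 4 treated arrays, for lists with at least 5 tested genes; dashed lines show the shares over all 11559 tested genes. The kinase inhibitors (8 of 14) and the immediate early transcription factors (12 of 25) lie far to the right of the dashed line for lower genes at 4.44%. The lists were chosen with earlier results of these data known.

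Among genes of the systems that venlafaxine acts on, 1 of 5 tested transport and enzyme genes and 2 of 10 tested receptors were apart. Each share is 20.0%, against 7.96% of all tested genes, but rests on so few genes that no excess can be read from it. The noradrenaline transporter gene Slc6a2 and the serotonin transporter gene Slc6a4 did not pass the level filter and overlapped, with 7.77 and 7.81 against 7.68 to 7.88 for Slc6a2 and 7.14 and 7.41 against 7.31 to 7.36 for Slc6a4. Of 5 tested genes of monoamine transport, synthesis and breakdown 1 was apart: Ddc, the enzyme that makes serotonin and dopamine from their precursors, read 8.60 and 8.69 in the controls, 8.84 and 8.86 at the low dose and 8.78 and 8.76 at the high dose (log2 fold change 0.16, limma adjusted p = 1.00). Of 10 tested monoamine receptors Drd1 and Htr5a were lower, with gaps of 0.038 and 0.0020. Drd1, also on the striatum list, differed by -0.088 on the first date and by -0.59 on the later date. Htr1a, a serotonin receptor gene, differed by -0.07 (log2), Maoa, which breaks monoamines down, by 0.02, and Ntrk2, the receptor gene of Bdnf, by -0.10. Nr3c1, which encodes the receptor of corticosterone, differed by -0.01, its target Fkbp5 by 0.01 and Dcx, a marker of immature neurons, by -0.08. In these 6 genes the controls overlapped the treated arrays on the probe set with the highest mean, and the sign of Htr1a, Maoa, Nr3c1 and Fkbp5 changed with the processing. A second probe set of Nr3c1 was apart and lower, with 10.61 and 10.62 in the controls and 10.30 to 10.50 in the treated arrays (-0.22). One of Fkbp5 was apart and higher by 0.13, near the level filter, with 7.84 and 7.84 in the controls and 7.90 to 8.00 in the treated arrays.

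Many genes have more than 1 probe set, and the others were read on the same RNA. Of 314 other probe sets of the lower genes that passed the level filter, 51 (16.2%) were apart and lower and 4 higher, and 266 had lower means. Of 153 other probe sets of the higher genes 13 (8.50%) were apart and higher and 3 lower. Among 7418 other probe sets of genes that were not apart 4.71% were lower and 2.90% higher. The second probe set of Egr2 read 8.33 and 8.67 in the controls and 7.67 to 7.93 in the treated arrays, apart by 0.40. Nr4a2 had a second probe set apart by 0.34, with 10.30 and 10.29 against 9.73 to 9.95. Its other probe sets above the level filter overlapped, with log2 differences of -0.52 and -0.20. High dose 2 read 10.81 against 10.70 and 11.11 in the controls for the former, and 9.192 against 9.095 and 9.336 for the latter. The second probe set of Fosl2 went the other way, with 7.73 and 7.65 against 7.76 to 7.81, but did not pass the level filter. Those of Sox9, Dnajb5, Hpca and Gsr passed the filter but were not apart, with log2 differences of -0.093, -0.079, 0.45 and 0.065. For Sox9 this was the opposite sign, with 8.65 and 8.69 in the controls and 8.47 to 8.69 in the treated arrays.

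The probe sets of Homer1, a scaffold protein of the postsynaptic density, differed from each other. The one with the highest mean read 12.19 and 12.15 in the controls and 11.95 to 12.08 in the treated arrays, a log2 difference of -0.16. Another read 11.94 and 12.10 in the controls, 11.45 and 11.56 at the low dose and 11.14 and 11.15 at the high dose, a difference of -0.70, with the high dose below the low dose. Which transcripts these probe sets read is not given in the sources used here.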

How the data were processed

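Per the submitters' processing notes the authors summarised the arrays with RMA in R 3.0.1, and deposited log2 values for 45101 probe sets of 6 Affymetrix arrays, per the labels made from 100 ng of total RNA each. Values ran from 6.10 to 15.31, as log2 data do; the settings of RMA and a genome build were not found in the labels. The number of arrays limits the precision. Array medians lay within 7.79 to 7.80.

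After 64 control probe sets, 34945 had 1 symbol, 932 several and 9160 none; 34741 symbols were updated by Entrez identifier from a RefSeq table. The probe set with the highest mean stood for each of 18193 genes. Tested genes had a mean over the 6 arrays above 7.80, a filter that does not look at the groups. limma 3.58.1 in R 4.3.3 (lmFit, eBayes, two-sided, Benjamini-Hochberg, threshold 0.05) compared 4 treated with 2 control arrays; high against low dose came from a fit with 1 coefficient per dose group. A gene was apart when both controls lay outside the treated range, and the gap is the distance between the nearest control and the nearest treated array; this used the tested contrast and is a description. Named are genes past the threshold, 15 genes in each direction with the widest gaps, up to 4 apart genes of each of 29 lists, a panel of 21 genes, genes at the edge of the rule, and the 3 apart genes with the smallest p between doses; the other apart genes of the 3 activity lists and all second probe sets were chosen after their values were seen. The members and lists were chosen with earlier results of these data known. On simulated arrays with 200 of 11559 genes changed, limma found 95.3% of genes shifted by 0.5 and 100% of genes shifted by 1 (log2) over 10 runs, with 12.5 false among 207.8 calls on average. The simulated noise was independent between arrays, with no effect of date, side or RNA integrity. That recovery therefore checks the code and is not the power of the comparison on the real arrays. Alternatives covered filters, probe sets, scaling, date, side, RNA integrity, replicate number and leaving out arrays.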

Additional observations from a re-analysis of the deposited data

Results flagged for a closer look

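The 4 treated arrays of each of 93 named genes were checked for 1 array far from the other 3, taking the gap to the nearest array over the whole range; arrays past Dixon's 95% limit for 4 values are given, and chance passes it in about 1 in 20 groups. There were 7 such genes. Low dose 1 was far below the others in Ccn2 (0.917) and Zfp874b (0.989). High dose 1 was the lowest in Klf10 (0.842), Gadd45b (0.894) and Errfi1 (0.881), with Klf10 at 8.85 against 9.08 to 9.12. Low dose 2 was the highest in 2900052L18Rik (0.91), and high dose 2 the highest in Pdlim5 (0.963).

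In 3 panel genes that were not apart, treated minus control had 1 sign in both right pools and the other in both left pools. The mean right difference was -0.11 for Bdnf, 0.20 for Slc6a4 and -0.11 for Nr3c1. Each side had 1 control, and control 2 minus control 1 was -0.22 for Bdnf, 0.27 for Slc6a4 and -0.14 for Nr3c1. These controls also differed in hybridization date and RNA integrity, so side cannot be told apart from these. Slc6a4 did not pass the level filter. The difference between sides was not tested.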

How the results depend on the processing

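The count of genes called, 1 for any dose against control, was 0 with no filter, 2 with the stricter filter (Fos and Egr1, since Egr2 is below it), 0 with the mean of all probe sets, 0 after quantile normalization, 65 with date as a term, 44 with side and date, 72 with RNA integrity as a covariate, 5 with 1 coefficient per dose group and 20 on the first date alone; it ran from 0 to 9 without 1 array, with 0 without control 2, either low dose array or high dose 1 and 9 without high dose 2. Fits with date or RNA integrity and that of the first date gave all genes 1 estimate of the spread. Without 1 control the remaining control is assumed to vary like the treated arrays. The replicate number pairs control and high dose by date but not the low dose: deviations of same-numbered arrays correlated at 0.0955 for control and low dose, 0.546 for control and high dose and 0.132 for low and high dose. With a replicate block 2 genes were called, Egr2 and Fos, and 44 between high and low dose.

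High against low dose, with 0 genes called, gave 21 with the stricter filter, 3 with date, 11 with side, 4 with RNA integrity, 23 with trend and robust settings and 0 to 148 without 1 array (148 without either control, 117 without high dose 1). Genes apart and lower numbered 335 with the stricter filter and 556 to 3553 without 1 array; genes apart and higher 914 with no filter, 162 with the stricter filter, 1027 after quantile normalization and 465 to 4127 without 1 array. The highest counts, 3553 lower without control 2 and 4127 higher without control 1, came with 1 control left; fewer arrays make the rule easier to meet. The immediate early list median of -0.15 was -0.30 with the stricter filter, -0.19 with RNA integrity and -0.22 on the first date, and -0.23 to -0.12 without 1 array; that of the activity-induced effectors, -0.089, was -0.12 to -0.049 without 1 array, with -0.049 without control 1; that of the kinase inhibitors, -0.13, was -0.17 on the first date and -0.17 to -0.057 without 1 array. The cause of these shifts was not tested. Side with date, the first date alone and 1 coefficient per dose group were not run for high against low dose, and Egr2 has no value under the stricter filter. Each high against low fit that called any gene, apart from that with trend and robust settings, gave all genes 1 estimate of the spread. No high against low fit with 0 calls did so.

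Signs changed in uncalled panel genes: Bdnf was -0.058 on the first date and -0.058 without control 2, Htr1a 0.0075 with the mean of probe sets and 0.0502 without control 1, Maoa -0.00802 without control 1, Nr3c1 0.0043 after quantile normalization, 0.061 without control 1 and 0.032 without high dose 2, and Fkbp5 -0.027 with RNA integrity, -0.0104 on the first date, -0.019 without control 2 and -0.037 without low dose 2. Without 1 array the ranges were -0.058 to 0.16 for Bdnf, -0.198 to 0.0502 for Htr1a, -0.00802 to 0.0545 for Maoa, -0.0744 to 0.0612 for Nr3c1 and -0.037 to 0.0504 for Fkbp5. None of the 582 values of the 30 genes with the widest gaps reversed.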

Other observations

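Some probe sets that do not stand for their gene had wide gaps in genes that were otherwise not apart, a selection made after their values were seen. A probe set of Atrx, a chromatin remodeller, read 9.10 and 9.15 in the controls and 8.51 to 8.83 in the treated arrays, while the one with the highest mean had a log2 difference of -0.02. Lrrtm3, a synaptic adhesion gene, had 9.21 and 9.18 against 8.79 to 8.93, Kitl, the ligand of the Kit receptor, 8.03 and 8.20 against 7.67 to 7.80, and the histone methyltransferase gene Nsd3 8.08 and 8.08 against 7.73 to 7.83. Prkg2, a cGMP-dependent protein kinase gene that was itself apart, had log2 differences of -0.38 and -0.40 by its 2 probe sets with wide gaps.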
